A study of Mus musculus with 9 samples.

Results

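The voltage-gated potassium channel alpha subunits are the pore-forming proteins of the Kv channels and their electrically silent relatives. They were taken as every gene of the table whose symbol begins with Kcna, Kcnb, Kcnc, Kcnd, Kcnf, Kcng, Kcnh, Kcnq, Kcns or Kcnv followed by a number, which gave 40 of 57010 genes in 10 subfamilies. The 9 RNA libraries were made from the hippocampus of C57BL/6J mice. In the CBD group (3 libraries) the L5 spinal nerve was ligated, a surgical model of neuropathic pain, and cannabidiol, a non-intoxicating cannabinoid, was then injected intraperitoneally at 5 mg/kg for 15 days. In the SNL group (3 libraries) the nerve was ligated and solvent was given. In the sham group (3 libraries) the L5 nerve was located but not tied, and solvent was given. The labels used here state neither age, sex nor how many animals stand behind a library, so p-values measure only the spread between these libraries, which may be technical.

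A Kv channel is a ring of alpha subunits around a potassium-selective pore, opened by depolarization of the membrane. In hippocampal neurons, Kv1 channels (Kcna) sit mainly on axons and restrain firing near threshold, Kv2 channels (Kcnb) form the delayed rectifier of the cell body, Kv3 channels (Kcnc) repolarize fast-spiking cells, and Kv4 channels (Kcnd) carry the A-type current of dendrites. Kv7 channels (Kcnq) carry the M current, which is closed by muscarinic receptors, and the Kcnh genes encode the ether-a-go-go, Erg and Elk channels. Subunits of Kcnf, Kcng, Kcns and Kcnv form no channel of their own and modify Kv2 channels.

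Total expected counts per library ran from 16972620 to 20470546. Dentate granule cell markers summed to between 411.5 and 746.8 CPM (TMM-scaled counts relative to library size) in CBD, between 377.8 and 558.5 CPM in SNL and between 584.1 and 913.1 CPM in sham, so all 9 libraries held dentate transcripts. Hypothalamic markers summed to 443.9 CPM in CBD 1, 359.2 CPM in SNL 1 and 102.6 CPM in SNL 2, against 41.3 CPM or less in the other 6 libraries. Thalamus and habenula markers summed to 2830 CPM in SNL 2, against 1482 CPM or less in the other 8. These 3 libraries therefore stand apart in hypothalamic markers, and for several results the value without them is given as well. Such values are not free of tissue differences. Thalamus and habenula markers summed to 1118 CPM in CBD 2, 1482 CPM in CBD 3 and 1176 CPM in SNL 3, against 818.7 to 1105 CPM in sham. Choroid plexus markers also varied, from 331.6 CPM in Sham 2 and 500 CPM in SNL 3 to 3233 CPM in SNL 2.

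Of the 40 genes, 37 were abundant enough to test. The 3 too low to test were Kcna7, with 0 to 2 reads in a library, Kcna10, a Kv1 subunit with 0 to 3 reads, and Kcnv2, a silent subunit known from the retina, with 0 to 6 reads. Levels of different genes were compared as CPM per kilobase of the longest annotated protein-coding transcript. Among the abundant genes was Kcnc1, a Kv3 subunit, at 27.5 ± 3.60 CPM per kilobase in CBD, 30.7 ± 7.96 in SNL and 29.3 ± 4.83 in sham (mean ± SD, n = 3 each). Kcnc2, of the same subfamily, averaged 24.1 CPM per kilobase over the 9 libraries, against 29.2 for Kcnc1. The places from Kcna2 (21.9 CPM per kilobase over 9 libraries) through Kcnd2 (20.6) and Kcnc4 (19.98) to Kcna6 (18.9) were not separated beyond the spread between libraries. At the low end of the genes tested stood Kcng3 at 0.303 CPM per kilobase and Kcnq1, best known from the heart, at 0.179.

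**Figure D1:**
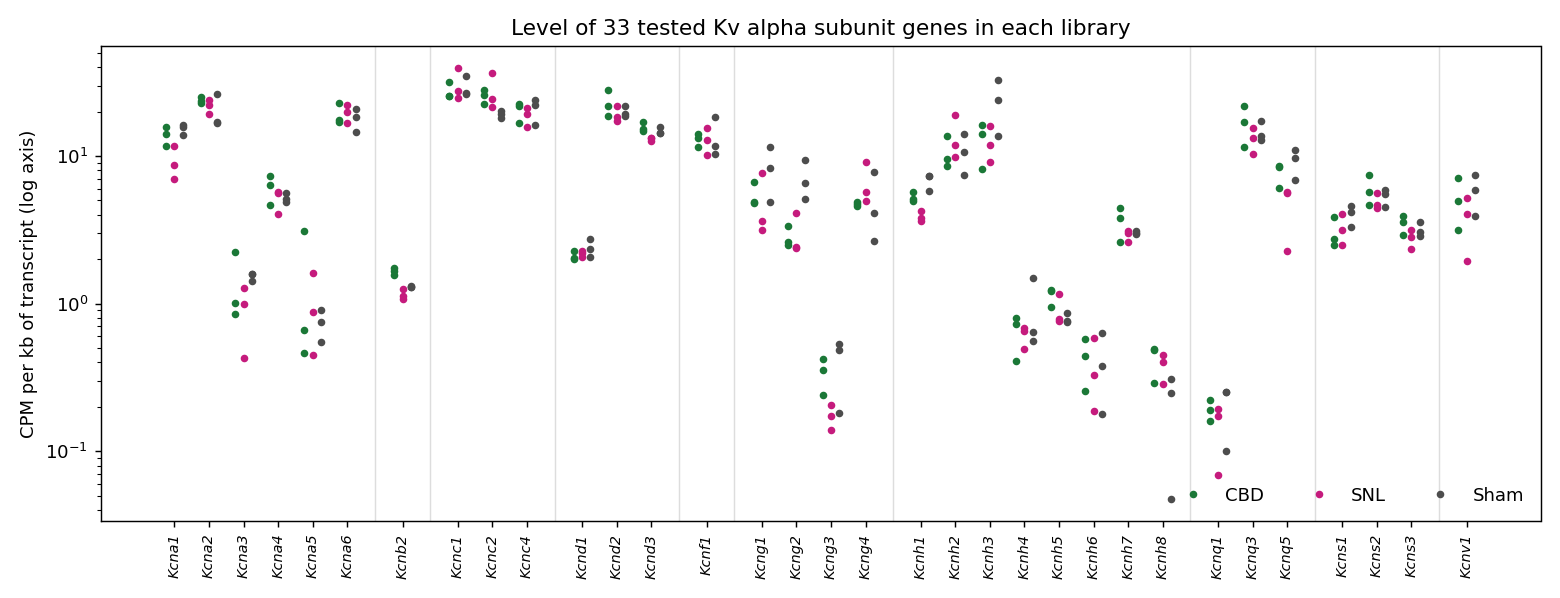
Level of 33 of the tested genes in CPM per kilobase of transcript (vertical log axis), grouped by subfamily along the horizontal axis, with 1 point per library and colours for the CBD, SNL and sham groups. Kcnc1 and Kcnc2 lie among the highest and Kcnq1 among the lowest, and most genes differ from each other by far more than the groups do.

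Added over their members, the Kcnc subfamily took between 25.1% and 33.5% of the summed Kv level per kilobase of a library, and Kcnq took between 17.2% and 25.6%. Kcna followed with 12.7% to 18.5%. Per kilobase, all 40 genes summed to 366.2, 395.8 and 407.6 CPM in the 3 CBD libraries, to 329.5, 404.1 and 355.6 CPM in the 3 SNL libraries, and to 439.6, 422.4 and 415.8 CPM in the 3 sham libraries. Every sham library therefore lay above every CBD and SNL library in this sum, in which the abundant genes weigh most. Summed as CPM without division by length, CBD and sham overlapped, with CBD 3 at 2754 CPM and Sham 3 at 2711 CPM. Of the 37 genes tested, 22 were lower and 15 higher in CBD than in sham, and 28 were lower and 9 higher in SNL than in sham. Markers of neurons in general summed to between 6418 and 6665 CPM in CBD, 6403 and 6722 CPM in SNL and 6346 and 7170 CPM in sham, with overlapping ranges. The Kcnq subfamily summed to 83.1 ± 13.0 CPM per kilobase in CBD, 68.0 ± 5.01 in SNL and 97.4 ± 13.2 in sham. The Kcnc subfamily differed less beside its spread, at 106.9 ± 1.14 in CBD, 112.9 ± 19.5 in SNL and 115.8 ± 11.04 in sham. Silent subunits took 10.7%, 12.1% and 10.96% of the summed level in CBD, 10.6%, 10.7% and 13.6% in SNL, and 13.7%, 12.5% and 10.5% in sham, and these ranges overlapped.

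Values in single libraries are given next for abundant genes of the subfamilies, in CPM within a gene. Kcna2, an axonal Kv1 subunit, stood at 264.5, 274.4 and 290.0 CPM in CBD, 255.2, 277.7 and 222.0 CPM in SNL, and 193.7, 196.4 and 306.7 CPM in sham. Sham 3 was the highest of the 9 and the other sham libraries the lowest, so the groups overlapped. Kcnc1, a Kv3 subunit of fast-spiking cells, stood at 245.6, 197.9 and 196.6 CPM in CBD, 215.2, 308.6 and 191.8 CPM in SNL, and 205.2, 206.6 and 270.8 CPM in sham, with SNL 2 the highest. Kcnd2, an A-type channel subunit of dendrites, stood at 95.5, 112.6 and 144.0 CPM in CBD, 89.4, 111.6 and 95.3 CPM in SNL, and 99.5, 111.9 and 96.9 CPM in sham. The groups overlapped for both of these genes, and CBD 3 was the highest for Kcnd2.

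The leading genes of the silent subfamilies also overlapped between groups. Kcnf1, the only gene of its subfamily, stood at 63.5, 67.6 and 54.9 CPM in CBD, 48.9, 61.5 and 73.7 CPM in SNL, and 88.1, 56.4 and 49.5 CPM in sham. Kcng1 stood at 19.8, 27.2 and 19.6 CPM in CBD, 12.9, 14.9 and 31.3 CPM in SNL, and 47.3, 33.9 and 19.9 CPM in sham. For both, Sham 1 was the highest library. Kcns2 stood at 25.4, 31.3 and 40.8 CPM in CBD, 24.3, 30.7 and 25.4 CPM in SNL, and 30.2, 32.3 and 24.5 CPM in sham. Kcnv1 stood at 13.8, 21.7 and 31.2 CPM in CBD, 17.9, 8.52 and 22.9 CPM in SNL, and 25.7, 32.8 and 17.1 CPM in sham, and its lowest library was SNL 2.

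The 37 tested genes had a median transcript length of 4.39 kilobases and a median GC content of 53.3%, against 3.02 kilobases and 49.7% over the tested genes with an annotated transcript. Promoter windows from RefSeq (GRCm38.p6) were at hand for 25 of the 40 genes, in 30 windows. The 250 bases before the start held a median of 14 CG dinucleotides in these windows, against 6 in all 32851 windows. The GC box GGGCGG, searched on both strands, was present in 56.7% of the Kv windows and in 32.7% of all windows. The TATA box TATAAA was found in 0 of the 30 Kv windows and in 12.4% of all windows, and the cAMP response element TGACGTCA in 0 of 30 and in 1.55%. The 2 windows below belong to Kcnh1 and Kcnq5, which were chosen by name and whose windows ran into an annotated transcript. Kcnc2, higher in SNL than in sham, was chosen too, but no window of it met this condition. Both Kcnh1 and Kcnq5 lay lower in SNL than in sham and higher in CBD than in SNL with no overlap of libraries. The same held for Kcnb2 and Kcnd3, which were not among the genes chosen. The window of Kcnh1 lies at chr1:192190527-192190776 on the plus strand, and that of Kcnq5 at chr1:21961943-21962192 on the minus strand. Capitals mark a GC box, read here on the opposite strand. The Kcnh1 window held 1 GC box and 17 CG dinucleotides, and the Kcnq5 window held 0 and 14.
Kcnh1: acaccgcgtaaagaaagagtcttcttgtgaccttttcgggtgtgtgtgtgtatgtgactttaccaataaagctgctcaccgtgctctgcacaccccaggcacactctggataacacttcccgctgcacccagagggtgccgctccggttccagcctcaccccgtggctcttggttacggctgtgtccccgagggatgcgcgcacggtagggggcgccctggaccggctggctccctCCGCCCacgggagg
Kcnq5: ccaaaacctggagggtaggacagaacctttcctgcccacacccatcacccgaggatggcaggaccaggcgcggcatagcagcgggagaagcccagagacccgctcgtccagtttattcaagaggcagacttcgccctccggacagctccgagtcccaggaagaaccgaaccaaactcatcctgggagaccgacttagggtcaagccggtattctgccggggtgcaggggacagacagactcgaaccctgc

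Setting SNL against sham shows the Kv genes after nerve ligation without drug. Of the 37 tested genes 28 were lower in SNL and 9 higher, where 48.4% of all 17967 genes tested were lower and 51.6% higher. The median log2 fold change of the Kv genes was -0.18, against 0.01 over all genes tested. It was -0.07 with offsets for transcript GC content and length. Between libraries of a group, the median log2 CPM of these genes had an SD of 0.22, averaged over the groups. All 5 Kcnq genes, the Kv7 subfamily, had a negative log2 fold change, from -1.01 to -0.17, as did 3 of 4 silent Kcng genes. The 6 Kv1 genes were split evenly, 3 to each side.

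By edgeR's quasi-likelihood test 0 of the 37 had an adjusted p under 0.05, as did 0.00% of all genes tested. At an unadjusted p under 0.05, 8 were lower in SNL (background 7.96% of all genes in that direction) and 1 was higher (background 5.83%), together 24.3% of the 37 against 13.8% of all genes. The DESeq2 Wald test called 5 of the 33 Kv genes to which it gave an adjusted p, or 15.2%, where it called 2.58% of all genes. Among them were Kcnh1, Kcng2, Kcna1 and Kcnq5. With no filter on low counts edgeR called these 4 and 0.776% of all genes, while limma voom called 0 Kv genes and 0.00557% of all genes. Every SNL library lay below every sham library for 8 Kv genes (background 9.81%) and above for 1 (background 7.94%). Those below included Kcna1, Kcna3, Kcnb2, Kcnd3, Kcng2, Kcnh1 and Kcnq5.

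Kcnh1, the ether-a-go-go channel Kv10.1 (ENSMUSG00000058248), had the smallest p. It stood at 27.4, 26.1 and 30.9 CPM in the SNL libraries, against 52.7, 53.2 and 42.1 CPM in the sham libraries. The groups did not overlap, and the log2 fold change was -0.81 (SE 0.12, edgeR adjusted p 0.160). Without any 1 of the 9 libraries it stayed between -0.91 and -0.75. It was -0.67 without SNL 1, SNL 2 and CBD 1, and also -0.67 with offsets for GC content and length. Kcng2, a silent subunit that modifies Kv2 channels (ENSMUSG00000059852), stood at 6.77, 6.68 and 11.6 CPM in SNL and 18.5, 26.2 and 14.4 CPM in sham. SNL 3 came nearest to the sham range but did not reach it, and the log2 fold change was -1.24 (SE 0.27, edgeR adjusted p 0.210). It was -0.76 without SNL 1, SNL 2 and CBD 1, which leaves only SNL 3 in its group and assumes that it varies like the others.

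Kcnq5, an M channel subunit (ENSMUSG00000028033), was chosen for description after its values were seen. It stood at 39.3, 15.9 and 40.1 CPM in SNL and 67.4, 76.5 and 47.8 CPM in sham, so SNL 2 was far below the rest. The log2 fold change of Kcnq5 was -1.01 (SE 0.31, edgeR adjusted p 0.250), -0.69 without SNL 2 and -0.67 without SNL 1, SNL 2 and CBD 1. Kcnq3, also an M channel subunit, overlapped between groups at 153.6 ± 30.8 CPM in SNL and 173.0 ± 27.6 CPM in sham (n = 3 each). For Kcnq3 the log2 fold change was -0.17 (SE 0.23).

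Kcna1, an axonal Kv1 subunit mutated in human episodic ataxia (ENSMUSG00000047976), stood at 28.1, 47.3 and 35.0 CPM in SNL and 55.6, 63.7 and 65.4 CPM in sham. The groups did not overlap, with a log2 fold change of -0.74 (SE 0.18, edgeR adjusted p 0.220). Its common channel partner Kcna2 had a log2 fold change of 0.12 (SE 0.17). Kcnh3, an Elk channel of forebrain neurons (ENSMUSG00000037579), stood at 33.9, 43.7 and 58.9 CPM in SNL and 120.9, 88.3 and 50.8 CPM in sham, where Sham 3 lay inside the SNL range. With a log2 fold change of -0.93 (SE 0.33, edgeR adjusted p 0.277), it stood at -0.61 without Sham 1 and -0.55 without SNL 1, SNL 2 and CBD 1. Kcng3, a silent subunit gene also under an unadjusted p of 0.05 on the lower side, was present at 0.467 to 0.691 CPM in SNL and 0.612 to 1.79 CPM in sham.

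**Figure D2:**
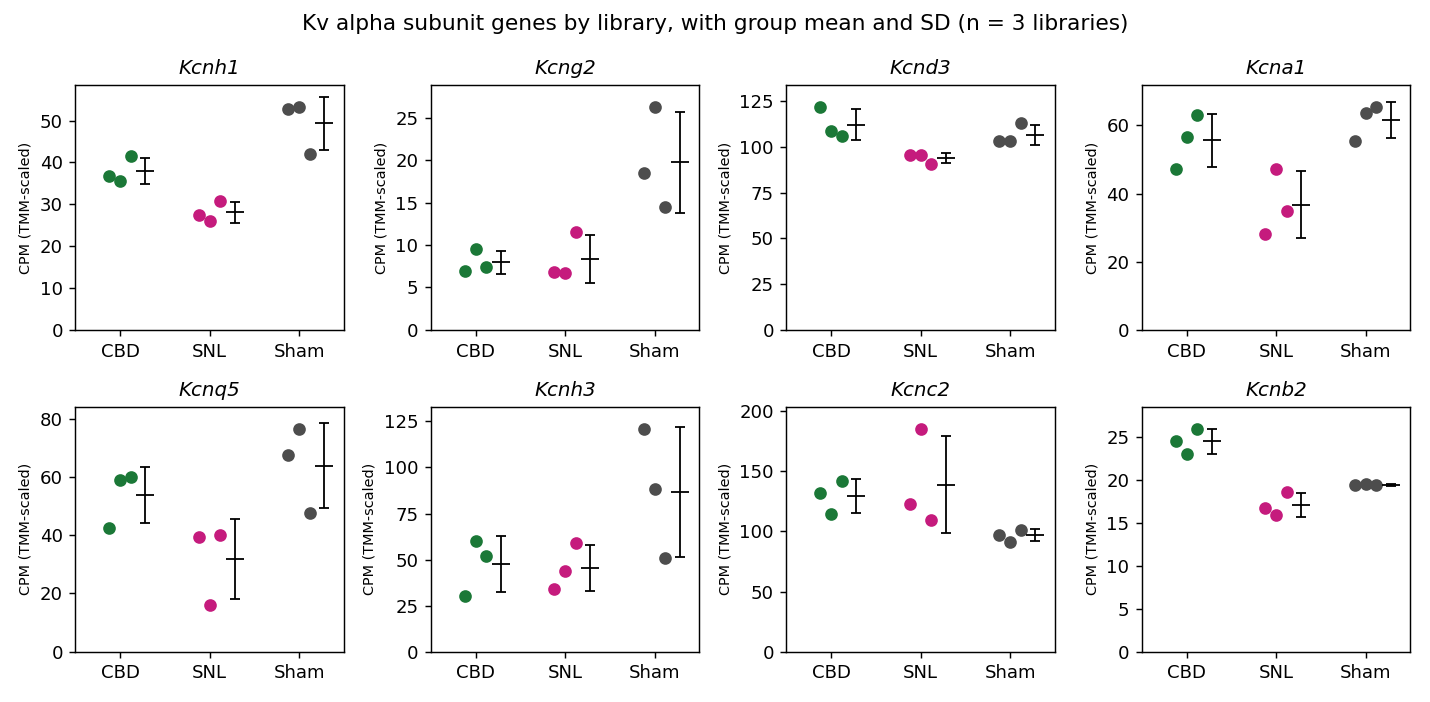
CPM of 8 Kv genes (1 panel each, vertical axis from 0) in the CBD, SNL and sham libraries, with a short line at the group mean and whiskers of 1 SD (n = 3). Kcnh1, Kcng2, Kcnd3, Kcna1 and Kcnq5 show every SNL library below every sham library, Kcnc2 shows the reverse, and Kcnb2 shows every CBD library above all others.

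On the higher side, Kcnc2 was the only gene with an unadjusted p under 0.05. This Kv3 subunit of fast-spiking interneurons and thalamic neurons (ENSMUSG00000035681) stood at 122.4, 185.2 and 109.2 CPM in SNL and 97.3, 91.5 and 101.5 CPM in sham. SNL 2 was far above the rest, and the log2 fold change was 0.52 (SE 0.18, edgeR adjusted p 0.270). Without SNL 2 it was 0.26, and without SNL 1, SNL 2 and CBD 1 it was 0.18. The other 3 genes with the smallest p on this side were Kcnh8, Kcng4 and Kcnh2, and all overlapped between groups. Kcnh8, an Elk channel, was low, at 1.93, 1.74 and 1.22 CPM in SNL and 1.07, 0.202 and 1.33 CPM in sham. Its log2 fold change was 0.90 (SE 0.52), 0.44 without Sham 2, 0.50 without SNL 1, SNL 2 and CBD 1, and 1.57 by limma voom. Kcng4, a silent subunit, stood at 21.6, 34.9 and 19.0 CPM in SNL and 15.6, 10.1 and 29.5 CPM in sham. Kcnh2, the Erg channel known for its part in cardiac repolarization, stood at 49.8, 79.7 and 41.3 CPM in SNL and 45.2, 31.6 and 59.7 CPM in sham. SNL 2 was the highest of the 9 libraries for both. In all libraries the log2 fold change of Kcng4 was 0.45 (SE 0.34). It was 0.14 without SNL 2, 0.16 without Sham 2, 0.98 without Sham 3 and 0.05 without SNL 1, SNL 2 and CBD 1. The log2 fold change of Kcnh2 was 0.32 (SE 0.29) in all libraries. It was 0.00 without SNL 2, 0.51 without SNL 3, 0.12 without Sham 2, 0.57 without Sham 3 and -0.13 without SNL 1, SNL 2 and CBD 1.

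Tissue markers moved over the same libraries. All 12 dentate granule cell markers were lower in SNL than in sham (median log2 fold change -0.70), as were all 8 CA1 markers tested (-0.44) and 9 of 10 CA3 and mossy cell markers (-0.53). CA1 markers summed to between 523.9 and 805.2 CPM in SNL and between 775.3 and 1207 CPM in sham. Of 15 thalamus and habenula markers 14 were higher in SNL (median 1.02), with sums of 1176 to 2830 CPM in SNL and 818.7 to 1105 CPM in sham. Myelin markers were higher in SNL for 12 of 12 (summed 10930 to 15540 CPM in SNL and 9076 to 12290 CPM in sham), and endothelial and pericyte markers for 10 of 10 (506.2 to 653.4 CPM in SNL and 371.3 to 432.9 CPM in sham). Hypothalamic markers were higher for 13 of 13 tested and choroid plexus markers for 9 of 10, but the summed values of both overlapped between groups. Choroid plexus sums were 741.2, 3233 and 500 CPM in SNL and 1933, 331.6 and 1495 CPM in sham. Hypothalamic sums were 31.45 to 359.2 CPM in SNL and 24.92 to 34.36 CPM in sham. Of the interneuron markers 6 of 12 were higher, of the microglial 4 of 10 and of the astrocyte markers 6 of 10. SNL 2, with the highest thalamic sum, was also the highest library for Kcnc1, Kcnc2, Kcng4 and Kcnh2. Among the tested genes it was the lowest for Kcnb2, Kcnc4, Kcng2, Kcnh1, Kcnq1, Kcnq5 and Kcnv1. How often the other libraries were highest or lowest was not counted. No defining marker was at 0 in all 9 libraries. In bulk tissue, fewer cells of a type and less RNA per cell cannot be told apart, and the part of these markers in the Kv differences was not tested.

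**Figure D3:**
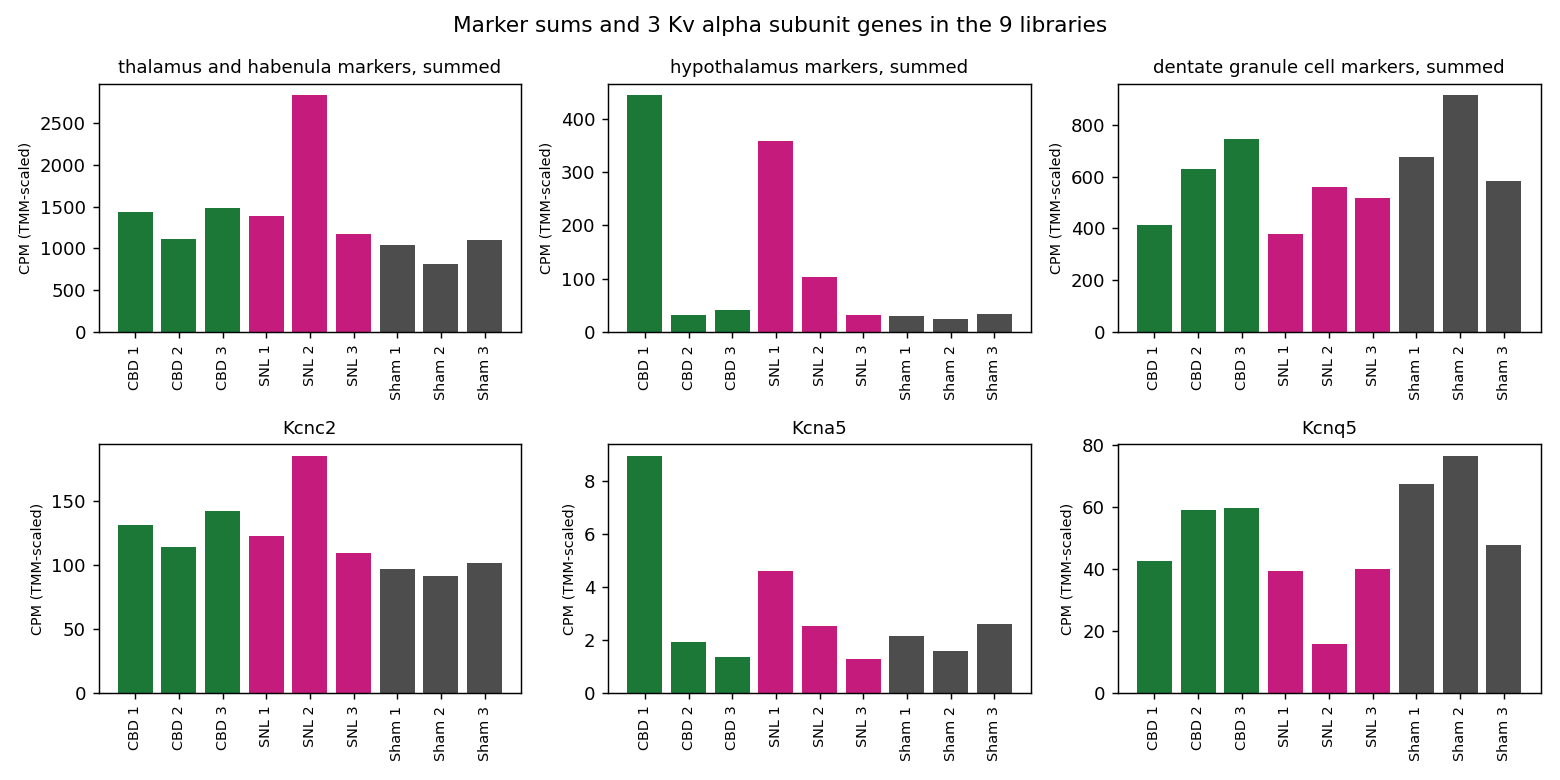
Summed CPM of thalamus and habenula, hypothalamus and dentate granule cell markers (upper row) and CPM of Kcnc2, Kcna5 and Kcnq5 (lower row) in each of the 9 libraries, as bars from 0. SNL 2 has the highest thalamic sum, the highest Kcnc2 and the lowest Kcnq5, and CBD 1 has the highest hypothalamic sum and the highest Kcna5.

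Between ligated mice with and without cannabidiol, the Kv genes lay mostly on the higher side. This comparison of CBD with SNL shares the SNL libraries with that of SNL with sham, so a gene low in those libraries is lower in SNL against sham and higher in CBD against SNL through the same values. Of the 37 tested Kv genes 27 were higher in CBD and 10 lower, where 49.9% of all genes tested were higher and 50.1% lower, and the median log2 fold change was 0.22, against 0.00 over all genes. It was 0.15 with the GC and length offsets and 0.11 without CBD 3. The SD of the median log2 CPM between libraries of a group, given above, was 0.22 as well. The higher side held 7 of 8 Kcnh genes, 5 of 6 Kv1 genes and 4 of 5 Kcnq genes, while 3 of 4 Kv3 genes were lower.

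By edgeR 0 of 37 Kv genes had an adjusted p under 0.05, as did 0.00% of all genes. At an unadjusted p under 0.05, 5 were higher in CBD (background 6.50%) and 0 lower (background 7.20%). Together these were 13.5% of the 37, close to the 13.7% of all genes. The groups did not overlap for 7 Kv genes, 18.9% of the 37, also close to the 19.3% of all genes. In 5 of them, Kcnb2, Kcnd3, Kcng3, Kcnh1 and Kcnq5, the CBD libraries were the higher ones (background 9.18%), and in 2, among them Kcng4, they were the lower ones (background 10.1%). DESeq2 called 1 Kv gene, Kcnb2, of the 24 to which it gave an adjusted p, and 1.58% of all genes. Limma voom with sample weights called Kcnb2 and Kcna1, where it called 6.30% of all genes, and edgeR with no filter called 0 Kv genes and 0.00307% of all genes.

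Kcnb2, the second Kv2 delayed rectifier subunit (ENSMUSG00000092083), had the smallest p. It stood at 24.6, 23.0 and 26.0 CPM in CBD, against 16.7, 15.9 and 18.6 CPM in SNL, and at 19.4, 19.5 and 19.4 CPM in sham. Every CBD library was above all others and every SNL library below all others. The log2 fold change against SNL was 0.52 (SE 0.11, edgeR adjusted p 0.306). After offsets for transcript GC content and length it was 0.15. The transcript of Kcnb2 is long and poor in GC, at 14.8 kilobases and 39.3%.

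Kcnh1 stood at 36.8, 35.7 and 41.6 CPM in CBD, above all SNL libraries and below all sham libraries given above. Against SNL the log2 fold change was 0.43 (SE 0.12, edgeR adjusted p 0.306). Kcna1 stood at 47.3, 56.5 and 63.0 CPM in CBD, where CBD 1 and SNL 2 were nearly equal. The log2 fold change of Kcna1 was 0.59 (SE 0.18, edgeR adjusted p 0.306). Kcnd3, an A-type channel subunit prominent in interneurons, stood at 121.6, 108.7 and 106.0 CPM in CBD and 95.4, 95.3 and 90.6 CPM in SNL. It had no overlap and a small log2 fold change of 0.26 (SE 0.09, edgeR adjusted p 0.313), and 0.11 after those offsets. Kcnq5 stood at 42.6, 59.0 and 59.9 CPM in CBD, above all SNL libraries. This gave a log2 fold change of 0.76 (SE 0.31, edgeR adjusted p 0.338), and 0.44 without SNL 2. The silent subunit gene Kcng3, low throughout, stood at 1.41, 1.19 and 0.811 CPM in CBD, also above all SNL libraries.

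On the lower side no gene had an unadjusted p under 0.05, and the smallest p-values included those of Kcng4, Kcnh2 and Kcnc1. Kcng4 stood at 17.4, 18.0 and 18.7 CPM in CBD, just below the SNL range, with a log2 fold change of -0.48 (SE 0.34) that was -0.17 without SNL 2 and -0.05 without SNL 1, SNL 2 and CBD 1. Kcnh2 at 57.9, 40.5 and 36.1 CPM in CBD overlapped SNL, with a log2 fold change of -0.34 (SE 0.29). It was -0.58 without CBD 1, -0.21 without CBD 3, -0.02 without SNL 2, -0.53 without SNL 3 and -0.11 without SNL 1, SNL 2 and CBD 1. For Kcnc1 it was -0.16 (SE 0.19) in all libraries, 0.07 without SNL 2 and 0.04 without SNL 1, SNL 2 and CBD 1. Kcng2, low in SNL, was as low in CBD at 6.98, 9.50 and 7.36 CPM, with a log2 fold change of -0.07 (SE 0.27). Dentate granule cell markers were higher in CBD for 10 of 12 (median log2 fold change 0.31) and thalamus and habenula markers for 1 of 15 (median -0.41). None of the 12 myelin markers was higher (summed 8659 to 10130 CPM in CBD and 10930 to 15540 CPM in SNL). The part of these markers in the Kv values was not tested.

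**Figure D4:**
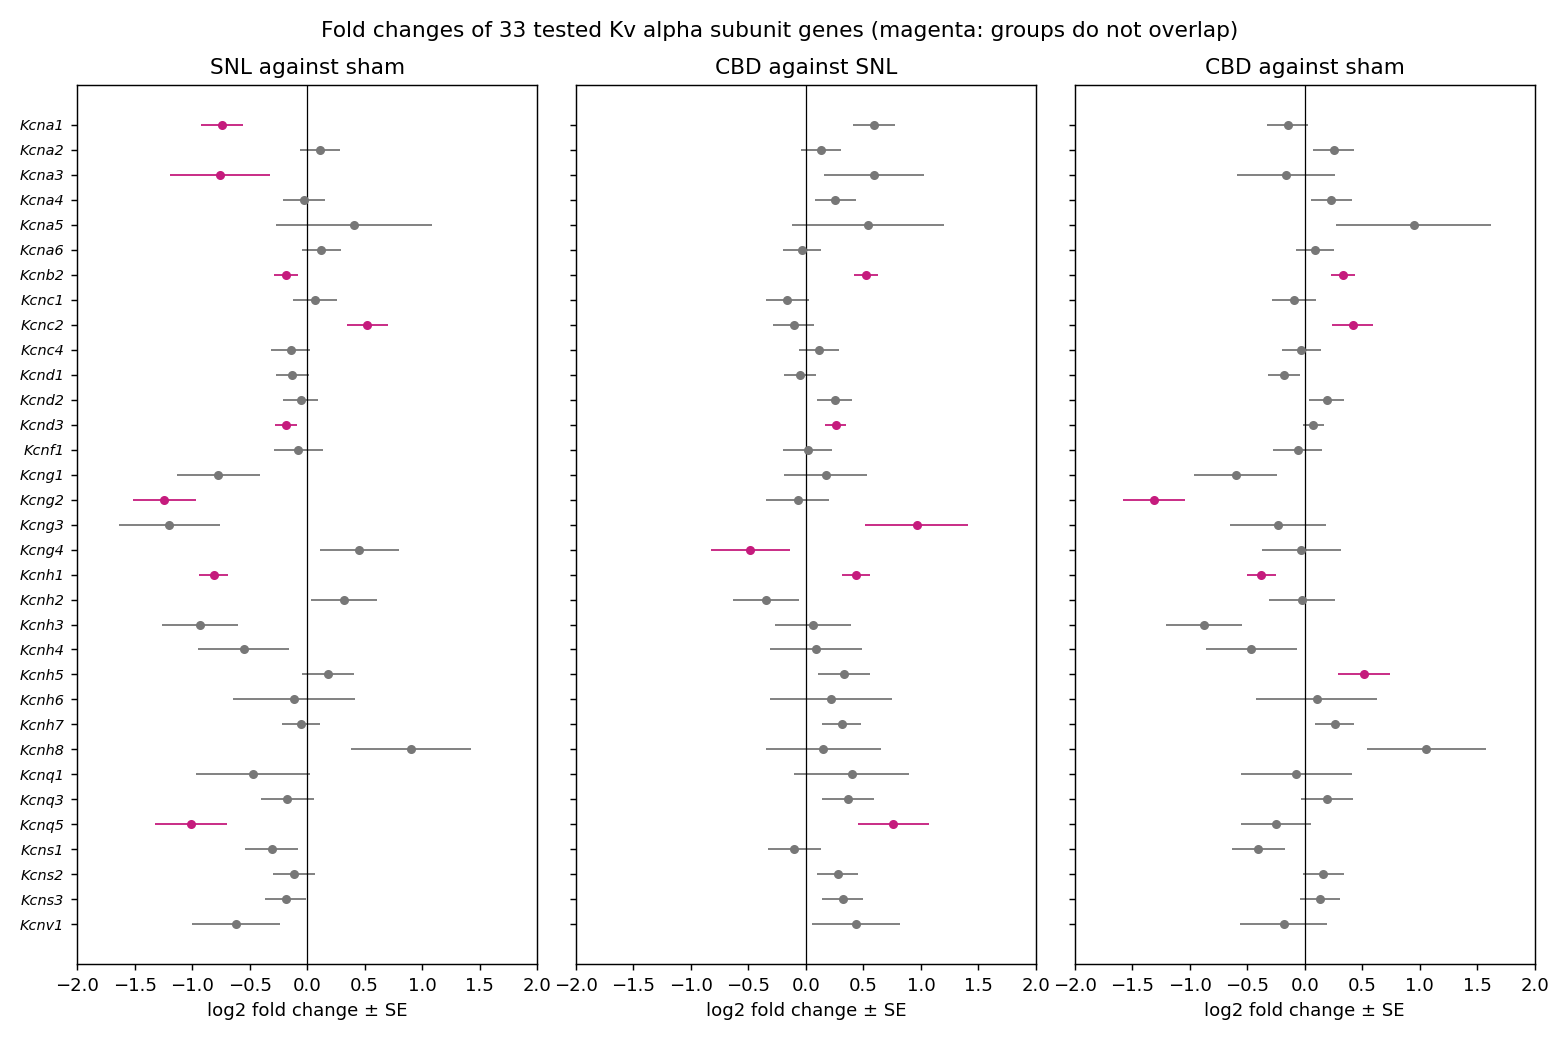
Log2 fold change with 1 SE (horizontal axes) of 33 tested Kv genes (rows) in SNL against sham, CBD against SNL and CBD against sham. Magenta marks genes whose libraries do not overlap between the groups compared, which are 8, 6 and 5 of the genes plotted; points lie mainly left of 0 in the first panel and right of 0 in the second.

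Relative to sham, the Kv genes of the CBD group lay on both sides of 0. These values share libraries with both comparisons above. Of the 37 tested Kv genes 15 were higher in CBD and 22 lower, where 50.1% of all genes were higher and 49.9% lower, and their median log2 fold change was -0.06, against 0.00 over all genes. The median was 0.03 with the GC and length offsets, 0.05 by limma voom, 0.02 without Sham 1 and 0.05 without Sham 3. All 4 Kcng genes and 4 of 5 Kcnq genes had negative values, and 4 of 6 Kv1 genes had positive ones. By edgeR 0 of 37 had an adjusted p under 0.05, as did 0.00% of all genes. At an unadjusted p under 0.05, 6 were lower (background 8.87%) and 3 higher (background 7.41%), together 24.3% against 16.3% of all genes. The groups did not overlap for 18.9% of the Kv genes and 21.7% of all genes. DESeq2 called Kcng2, 1 of 28 Kv genes with an adjusted p, and 3.39% of all genes. With no filter edgeR called Kcng2 and 0.172% of all genes, and limma voom called Kcng2 and Kcnh1 and 5.85% of all genes.

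Kcng2 was again the lowest relative to sham, with CBD and sham values that did not overlap and a log2 fold change of -1.31 (SE 0.27, edgeR adjusted p 0.213). Kcnh1 was lower than in sham by a log2 fold change of -0.38 (SE 0.12, edgeR adjusted p 0.221). Kcnh3 stood at 30.4, 59.9 and 51.8 CPM in CBD, overlapping sham through Sham 3, with a log2 fold change of -0.87 (SE 0.33). It was -0.56 without Sham 1 and -0.48 with the offsets.

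The genes higher in CBD than in sham with the smallest p were Kcnb2, Kcnc2, Kcnh5 and Kcnh8. Kcnb2 had a log2 fold change of 0.34 (SE 0.11, edgeR adjusted p 0.216), and 0.03 after the same offsets. Kcnc2 stood at 131.6, 114.3 and 142.0 CPM in CBD, all above sham, with a log2 fold change of 0.42 (SE 0.18, edgeR adjusted p 0.288). Kcnh5, the ether-a-go-go relative Kv10.2, stood at 5.04, 4.95 and 3.82 CPM in CBD and 3.52, 3.03 and 3.11 CPM in sham, without overlap, for a log2 fold change of 0.52 (SE 0.22, edgeR adjusted p 0.293). Kcnh8 overlapped, with CBD at 2.11, 1.24 and 2.09 CPM, and its log2 fold change of 1.06 (SE 0.52) was 0.59 without Sham 2. Thalamus and habenula markers were higher in CBD than in sham for 15 of 15, hypothalamic markers for 13 of 13 tested and choroid plexus markers for 10 of 10. The sums of the hypothalamic markers (32.15 to 443.9 CPM in CBD and 24.92 to 34.36 CPM in sham) overlapped between groups. So did those of the choroid plexus markers (1663 to 2802 CPM in CBD and 331.6 to 1933 CPM in sham). Dentate granule cell markers were higher for 2 of 12 and microglial markers for 1 of 10. Their part in these values was not tested. Across the 37 Kv genes the log2 fold changes of CBD against sham followed transcript GC content, with a Spearman rho of -0.64, as they did across 17642 genes with an annotated transcript (rho -0.57). For CBD against SNL the values were -0.50 and -0.45, and for SNL against sham -0.28 and -0.15. All these genes were measured in the same libraries and are not independent.

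Some low Kv genes stood out in single libraries. Of these, Kcna5 and Kcna3 lie outside the naming rule and were chosen for description after their values were seen. Kcna5, a Kv1 subunit also found in vascular muscle, stood at 8.93, 1.91 and 1.33 CPM in CBD, 4.61, 2.52 and 1.28 CPM in SNL and 2.14, 1.57 and 2.60 CPM in sham. The highest values were those of CBD 1 and SNL 1, the libraries with the highest hypothalamic marker sums, and whether these are linked was not tested. Kcna3, a Kv1 subunit also known from T cells and microglia, stood at 4.28, 1.91 and 1.62 CPM in CBD, 0.817, 1.89 and 2.44 CPM in SNL and 2.70, 3.03 and 3.01 CPM in sham. Its SNL libraries were all below sham, and its counts, like those of Kcna6 and Kcnh7, lay more than 0.005 from a whole number in all 9 libraries, as happens where RSEM shares reads between loci. The other low genes, Kcnh4, Kcnh6 and Kcnq1, overlapped between groups in all 3 comparisons. The same held for the Kv1 genes Kcna4 and Kcna6, the Kv3 gene Kcnc4, the Kv4 gene Kcnd1, the Erg channel gene Kcnh7 and the silent subunit genes Kcns1 and Kcns3, whose log2 fold changes lay between -0.40 and 0.32.

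Kv channels work with auxiliary subunits and anchoring proteins, and 33 of a list of 36 such genes were tested. In SNL against sham 15 were higher and 18 lower (median log2 fold change -0.02). By edgeR 0 passed at an adjusted p under 0.05, 3 were higher (background 5.83%) and 7 lower (background 7.96%) at an unadjusted p under 0.05, and DESeq2 called 3 (background 2.58%). Of these 3, Kcnip1 and Kcnip4 were higher in SNL and Kcnip2 was lower. Kcnip4, a calcium-binding subunit of Kv4 channels, stood at 61.6, 65.9 and 52.2 CPM in SNL and 38.6, 45.6 and 45.4 CPM in sham, without overlap, with a log2 fold change of 0.47 (SE 0.12, edgeR adjusted p 0.220). Kcnip1, of the same family and known from interneurons, stood at 35.4, 32.0 and 25.7 CPM in SNL and 18.5, 13.8 and 24.1 CPM in sham, with a log2 fold change of 0.72 (SE 0.20, edgeR adjusted p 0.230). Without SNL 1, SNL 2 and CBD 1 these values were 0.28 for Kcnip4 and 0.46 for Kcnip1. Kcnip2, of that family too and described after its values were seen, averaged 80.6 ± 26.1 CPM in SNL and 163.5 ± 54.4 CPM in sham (SD, n = 3 each), with a log2 fold change of -1.02 (SE 0.30, edgeR adjusted p 0.235). All CBD libraries were likewise above sham for Kcnip4 and Kcnip1. Kcnip4 stood at 58.9, 59.5 and 65.4 CPM there (log2 fold change against sham 0.50, SE 0.12, and 0.25 with the offsets) and Kcnip1 at 34.2, 27.5 and 27.7 CPM (0.67, SE 0.20). The 3 Kv4 genes had log2 fold changes from -0.18 to -0.06 in SNL against sham.

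In CBD against SNL 22 of the 33 partner genes were higher and 11 lower (median log2 fold change 0.07), with 0 past the edgeR threshold, 2 higher (background 6.50%) and 1 lower (background 7.20%) at an unadjusted p under 0.05, and 1, Dlg2, called by DESeq2 (background 1.58%). Dlg2, a scaffold protein that anchors Kv1 channels, stood at 242.5, 301.2 and 313.4 CPM in CBD and 178.3, 168.4 and 222.3 CPM in SNL, without overlap. The log2 fold change of Dlg2 was 0.59 (SE 0.15, edgeR adjusted p 0.306), and 0.35 after the offsets. Lgi3, a secreted protein of the Lgi family, stood at 153.8, 119.3 and 123.9 CPM in CBD and 181.8, 209.4 and 153.0 CPM in SNL, where CBD 1 and SNL 3 overlapped narrowly. That gave a log2 fold change of -0.46 (SE 0.15, edgeR adjusted p 0.306). In CBD against sham 19 were higher and 14 lower (median 0.06), with 0 past the edgeR threshold, 4 higher (background 7.41%) and 5 lower (background 8.87%) at an unadjusted p under 0.05, and 1, Kcnip4, called by DESeq2 (background 3.39%).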

How the data were processed

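The deposited file gives each gene's expected count in 9 libraries, from RSEM, which divides ambiguous reads among transcripts. The submitters' processing notes name RSEM and GRCm39; version, aligner and annotation are not given in the sources used. Per the labels' protocols, RNA was extracted with TRIzol and libraries were made with a SMARTER mRNA-seq kit.

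Counts were rounded to whole numbers, filtered with filterByExpr (17967 genes kept) and scaled by TMM. Testing used edgeR's quasi-likelihood test (4.0.16, R 4.3.3), with 1 group factor over all 9 libraries and Benjamini-Hochberg adjustment over all genes tested. SE is |log2 fold change| over the root of F. CPM are TMM-scaled. Transcript length and GC content came from the GENCODE M21 annotation (GRCm38, an older build than the files'). The only coordinates given are those of the promoter windows. Promoter windows are RefSeq's, on GRCm38.p6, and were printed where the 50 bases after the start lay in a GENCODE transcript of the same strand.

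The Kv genes, the partner and marker lists and the naming rule were chosen with earlier results of these data known. Values in each library are given for the 4 genes with the smallest p in each direction of each comparison and the most abundant gene of each subfamily, and for other genes with an unadjusted p under 0.05. Kcna3 and Kcna5 were added outside this rule. Some genes within this rule are not reported here by name; counts cover them. The most similar libraries, CBD 2 and CBD 3, still differed beyond sampling noise (6.44 chi-square per gene). Alternatives used DESeq2 (1.42.0), limma voom (3.58.1) and mgcv (1.9.3) for the GC and length offsets.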

Additional observations from a re-analysis of the deposited data

How the results depend on the processing

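The count of Kv genes past an adjusted p of 0.05 was 0 in all 3 comparisons under edgeR with DESeq2 size factors, a filter of 1 CPM in 3 libraries, the 6 libraries compared, offsets for GC content and length, or without SNL 1, SNL 2 and CBD 1, and without any 1 library (0 to 0). In SNL against sham it was 4 with no filter on low counts (0.776% of all genes called) and 5 by DESeq2. In CBD against SNL it was 1 by DESeq2 and 2 by limma voom. In CBD against sham it was 1 with no filter, 1 by DESeq2 and 2 by limma voom (5.85% of all genes called). The causes were not tested.

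At an unadjusted p under 0.05, the 1 gene higher in SNL than in sham became 2 by voom and 0 without SNL 1, SNL 2 and CBD 1, with a range of 0 to 4 when 1 library was left out (0 without SNL 2, 4 without Sham 3). The 8 lower ranged from 5 (without SNL 1) to 9. The 5 higher in CBD than in SNL became 14 by voom, 3 with the GC and length offsets and 3 without the 3 libraries, ranging from 4 to 10 (without CBD 1). Against sham, the 3 higher in CBD became 6 by voom, 1 with the replicate block, 1 with the offsets and 6 without the 3 libraries, ranging from 1 (without Sham 1 or Sham 2) to 3. The 6 lower became 2 with the offsets, ranging from 4 to 7. The median log2 fold change ranged from -0.25 (without Sham 2) to -0.07 (with the offsets) in SNL against sham, from 0.11 to 0.24 in CBD against SNL, and from -0.12 to 0.05 in CBD against sham. The sign reversed for Kcnh2 in SNL against sham without SNL 1, SNL 2 and CBD 1 (-0.13). For Kcnc1 in CBD against SNL it reversed without those libraries (0.04) or without SNL 2 alone (0.07). When any 1 of the 9 libraries was left out, Kcnc1 ranged from -0.297 to 0.068 in that comparison. With the offsets Kcnb2 was 0.15 in CBD against SNL and 0.03 in CBD against sham.

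The replicate numbers are shared between groups, but nothing says that they pair animals. Deviations of same-numbered libraries correlated between -0.27 and 0.19, and 0 of 9 libraries correlated best with their own number. With the replicate block the count past the threshold was 0 in each comparison, with medians of -0.18, 0.23 and -0.04.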
